A study of Mus musculus with 4 samples.

Results

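Rgs16 and the clock genes Wee1, Dbp, Tef, Per1, Per2, Nr1d1 and Nr1d2 were followed in mouse liver as 8 genes read by 14 probes, of 9285 genes and 15478 probes in all. They were chosen by name as probes annotated to a single one of 9 genes, and Cry1, the ninth, had no probe annotated to it alone. Rgs16 was put on the list because it was among the lowest genes in both G37 lines, so its values there are given as a description. The study measured liver RNA of male B6/FVB mice aged 7 to 8 weeks on a selenium-sufficient diet, using 2-colour arrays in which each mutant was set against wild-type littermates, with 1 biological replicate per array. Trsp encodes the selenocysteine tRNA, which brings selenocysteine into selenoproteins. The G37H line carried 16 copies of a Trsp transgene with an A37-to-G37 change, the A34 line 2 copies of one with a T34-to-A34 change, the G37L line 2 copies of the A37-to-G37 transgene, and the DTrsp line lacked Trsp in the liver. The wild-type mice are labelled Trsp. The labels do not say whether the transgenic livers kept their own Trsp, which sequences drive the transgenes and the deletion, or how many founders each line had.

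Each line has 1 deposited value per probe, which the authors averaged over 3 animals for G37H and 4 for the other lines, per the labels. No spread between animals, test or p-value can therefore be given, and every comparison describes 1 averaged value per line. A positive value is read as higher in the mutant (Cy5) than in wild type (Cy3), which is likely from the dye labels but not stated, and the other reading would turn every sign. Base 2 is assumed for the logarithm, which the labels leave unstated. A gene was counted as lower or higher when it stood 1 or more log2 units (2-fold) from 0. The only error visible in the values is between probes of the same gene, with a median SD of 0.23 in G37H, 0.22 in A34, 0.24 in G37L and 0.33 in DTrsp over the 2414 genes that have 2 or more probes.

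The clock in liver cells is a feedback loop. The activators CLOCK and BMAL1 bind E-boxes and switch on the Per and Cry genes, whose proteins then repress the activators, while the REV-ERB receptors Nr1d1 and Nr1d2 repress Bmal1. The PAR bZIP factors Dbp, Tef and Hlf carry the rhythm to enzymes of haem, bile acid and drug metabolism through sites called D-boxes. Wee1, a kinase that restrains entry into mitosis by phosphorylating Cdk1, is also under clock control in mouse liver. Rgs16 speeds the hydrolysis of GTP by Gi and Gq class alpha subunits, which shortens signalling from their receptors, and its mouse liver transcript follows the day and the supply of carbohydrate. Transcripts of these genes change strongly over the day, and the labels give neither the hour nor the feeding state at which livers were taken.

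Rgs16 was far below wild type in both G37 lines and close to it in the others. Its log2 ratio was -2.12 in G37H, 0.30 in A34, -2.80 in G37L and -0.01 in DTrsp. In relative terms the transcript stood at 23.1% of wild type in G37H, 123% in A34, 14.4% in G37L and 99.5% in DTrsp. Among 9285 genes it was the lowest in G37L and the fifth lowest in G37H. With the direction of the ratio turned, it would be the highest in G37L, at 696% of wild type, and the fifth highest in G37H, at 433%. These 2 values chose the gene and support nothing further. Its A34 and DTrsp values, which the choice did not use, lay at or above 76.8% and 35.4% of all genes. Rgs16 was read by 1 probe. In G37L its decimals are those of an average over 4 arrays, whereas in G37H the value has no fraction of the 4-decimal step, as have 43.5% of the G37H probes; a number of that kind may be 1 array's reading or an average that happens to end evenly.

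Wee1 was at least 2-fold lower in G37L alone among the 4 lines. Its log2 ratio was -0.16 in G37H, 0.39 in A34, -1.06 in G37L and 0.55 in DTrsp. The G37L value, 47.9% of wild type and ranked 301 from the lowest of 9285 genes, is an average over 4 arrays by its decimals; turned, it would be 209% and rank 301 from the highest. It lies just past the 2-fold mark, and relative to the median of all genes in G37L it was -0.95, short of it. In G37H the decimals show an average over 2 arrays.

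**Figure D1:**
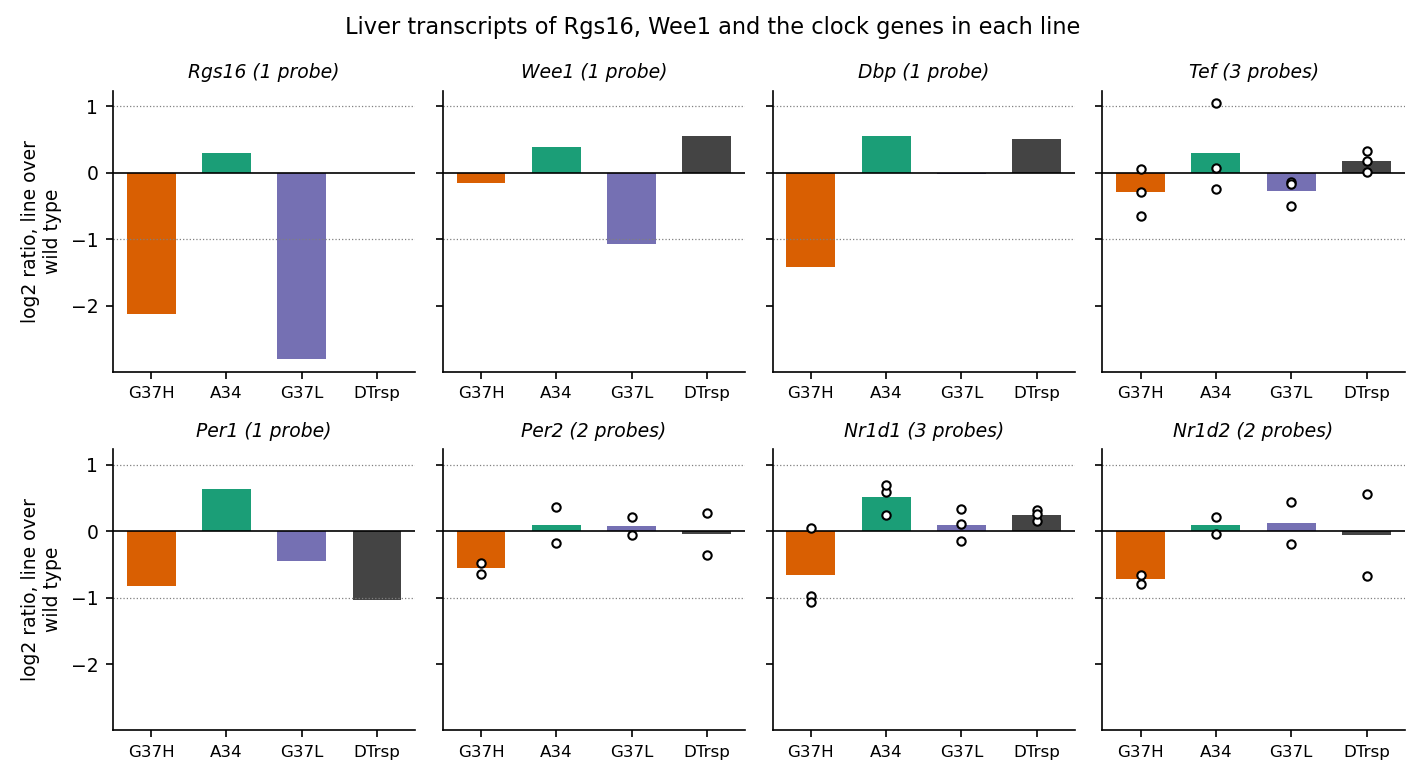
Bars give the log2 ratio of each line over wild type for each of the 8 genes, 1 panel per gene, and open circles the single probes where a gene has 2 or 3; dotted lines mark 2-fold. Rgs16 is deepest in G37L (-2.80) and G37H (-2.12), Wee1 is past the mark in G37L alone, and Dbp in G37H alone; no error bars are drawn because the columns are averages over animals.

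Dbp, a PAR bZIP activator known for a wide daily swing, was at least 2-fold lower in G37H alone among the 4 lines. Its log2 ratio was -1.42 in G37H, 0.56 in A34, -0.01 in G37L and 0.51 in DTrsp. The G37H value corresponds to 37.5% of wild type, ranks 67 from the lowest among 9285 genes, and has the decimals of an average over all 3 arrays; turned, it would be 267% and rank 67 from the highest. In A34 and DTrsp the gene lay at or above 91.7% and 80.1% of all genes. Tef, a relative of Dbp with the same binding site, lay nearer to 0, with -0.29 in G37H, 0.30 in A34, -0.26 in G37L and 0.18 in DTrsp. Its 3 probes did not agree in A34, where they read 0.08, 1.05 and -0.24, with an SD of 0.67 against a typical 0.22. In G37H they read -0.65, 0.06 and -0.29.

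Nr1d1 and Nr1d2, the haem-binding REV-ERB repressors, were both below wild type in G37H. Nr1d1 was at -0.66 in G37H, 0.51 in A34, 0.10 in G37L and 0.25 in DTrsp. In G37H its probes split, with -0.98 and -1.06 from averages over 3 arrays and 0.06 from a value with no fraction, and the median of the 3 was -0.98. In A34 all of its probes were above 0, from 0.25 to 0.70. Nr1d2 was at -0.72 in G37H, 0.09 in A34, 0.13 in G37L and -0.05 in DTrsp. Its probes were close in G37H (-0.79 and -0.66), both being values with no fraction. In DTrsp they were far apart (0.57 and -0.68), so the DTrsp mean near 0 joins opposite readings.

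Per1 and Per2, the repressors of the negative limb, were below wild type in G37H, and Per1 also in G37L and DTrsp. Per1 was at -0.82 in G37H, 0.64 in A34, -0.44 in G37L and -1.03 in DTrsp. The DTrsp value is 49.1% of wild type, just past 2-fold, with the decimals of an average over 3 of the 4 arrays, and 1.48% of genes were at or below it; turned, it would be 204%. In A34 the gene lay at or above 94.0% of genes, the highest place of any of the 8 there. Per2 was at -0.56 in G37H, 0.10 in A34, 0.08 in G37L and -0.04 in DTrsp. Its probes read -0.65 and -0.47 in G37H, and lay on opposite sides of 0 in the other 3 lines.

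The windows upstream of 4 of these genes are shown because the E-box is the site through which the activators act on the Per and Nr1d1 genes, and because Rgs16 and Dbp had the lowest values. Each is the 250 bases before an annotated start in RefSeq, build GRCm38.p6, 5′ to 3′ on the strand of the gene, with capitals marking an E-box (CACGTG) or the related CACGTT, either strand. They lie at chr11:69098699-69098948 (+) for the first Per1 start, chr11:98775378-98775627 (-) for Nr1d1, chr7:45704997-45705246 (+) for Dbp and chr1:153740103-153740352 (+) for Rgs16.
Per1: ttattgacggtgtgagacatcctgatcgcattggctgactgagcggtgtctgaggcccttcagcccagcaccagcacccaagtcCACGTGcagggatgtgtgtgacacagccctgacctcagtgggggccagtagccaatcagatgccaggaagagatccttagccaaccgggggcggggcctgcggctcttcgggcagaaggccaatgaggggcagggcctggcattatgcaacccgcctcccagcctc
Nr1d1: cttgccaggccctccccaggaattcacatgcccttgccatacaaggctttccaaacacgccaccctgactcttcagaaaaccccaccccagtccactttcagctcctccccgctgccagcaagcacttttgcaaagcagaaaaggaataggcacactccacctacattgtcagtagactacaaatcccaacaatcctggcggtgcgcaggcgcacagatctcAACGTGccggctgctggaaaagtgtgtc
Dbp: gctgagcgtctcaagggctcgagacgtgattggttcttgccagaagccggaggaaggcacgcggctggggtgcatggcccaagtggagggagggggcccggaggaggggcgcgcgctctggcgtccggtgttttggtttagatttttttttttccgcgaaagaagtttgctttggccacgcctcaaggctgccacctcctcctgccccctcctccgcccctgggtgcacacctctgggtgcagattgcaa
Rgs16: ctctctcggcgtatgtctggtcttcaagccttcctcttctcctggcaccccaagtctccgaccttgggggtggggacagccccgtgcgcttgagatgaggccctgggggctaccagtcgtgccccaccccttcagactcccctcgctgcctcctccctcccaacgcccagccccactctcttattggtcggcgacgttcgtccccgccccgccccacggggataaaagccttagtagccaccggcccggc
The Per1 window held CACGTG beginning 166 bases before the start, and the Nr1d1 window AACGTG, the reverse complement of CACGTT, beginning 28 bases before it. The Dbp and Rgs16 windows held neither. Both Tef windows, at its 2 annotated starts, held CACGTG, and the second Per1 window and the Nr1d2 window held neither motif. Over 32851 such windows of the mouse annotation, 6.02% held CACGTG and 3.85% CACGTT. The D-box spellings TTATGTAA and TTACGTAA (0.931% of windows) and the ROR element core TAGGTCA (2.23%) were in none of the 8 windows of these 6 genes, and no matched stretches overlapped. Wee1 and Per2 had no entry in the table. A match is a description of letters in these windows, and sequence outside them was not searched. Nothing is drawn from the presence or absence of a match.

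As a group, the 8 genes lay below wild type in G37H and above it in A34. In G37H all 8 were below 0, as were 61.6% of all genes, and all 8 were also below the median of all genes (-0.11). Relative to the median of all genes, Wee1 was at -0.04 and Tef at -0.18, both within the typical SD between probes of 0.23. The median of the 8 was -0.69, and without Rgs16 it was -0.66 over 7 genes. At least 2-fold lower were 2 of the 8, Rgs16 and Dbp, against 3.10% of all genes, and 0 were at least 2-fold higher, against 2.78%; Rgs16 was chosen on this contrast, and nothing is read from its count. By probe, 12 of 14 were below 0 in G37H, against 60.6% of all probes, the exceptions being 1 probe each of Tef and Nr1d1. Of these 14 values, 7 had no fraction of the 4-decimal step, as had 43.5% of the G37H probes. Each of them may be 1 array's reading or an average that ends evenly. In A34 all 8 were above 0, as were 59.1% of all genes, with a median of 0.35 against 0.07 for all genes. Per2 at 0.10 and Nr1d2 at 0.09 were close to the level of all genes in A34. By probe, 11 of 14 were above 0 there, against 58.7% of all probes. None of the 8 reached 2-fold there (0 higher, against 1.40% of all genes, and 0 lower, against 0.452%).

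In G37L and DTrsp the 8 genes fell on both sides of 0. In G37L 5 of 8 were below 0, against 60.6% of all genes, with a median of -0.14 against -0.11 for all genes. There 2 were at least 2-fold lower, Rgs16 and Wee1, against 3.96% of all genes, and 0 higher, against 2.51%. Rgs16 was chosen on its low value there, and nothing is read from its count. Without Rgs16 the G37L median was -0.01 over 7 genes, and 1 of the 7, Wee1, was at least 2-fold lower. Centred on the median of all genes only Rgs16 stayed past 2-fold. By probe, 10 of 14 were below 0 in G37L, against 58.4% of all probes, and 10 of 14 above 0 in DTrsp, against 62.2%. In DTrsp 4 of 8 genes were below 0, against 36.0% of all genes, and the median was 0.08 against 0.16 for all genes. Per1 was the 1 gene at least 2-fold lower, against 1.62% of all genes, and 0 were higher, against 3.27%.

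**Figure D2:**
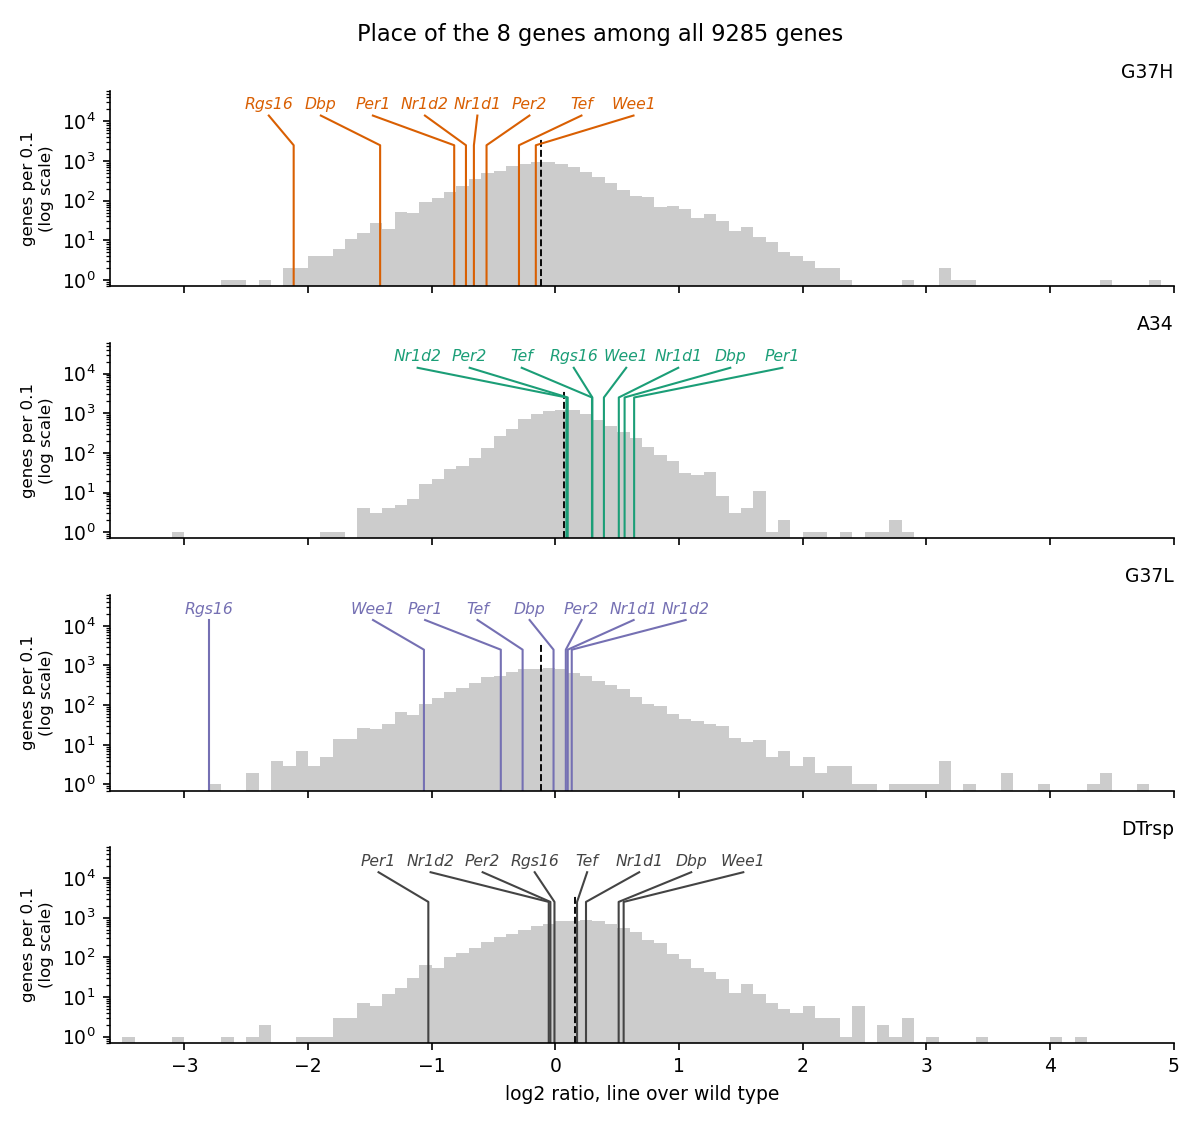
Grey histograms show the log2 ratios of all 9285 genes in each line (log scale of gene number per 0.1), dashed lines the column medians, and coloured lines the 8 genes. In G37H all 8 stand left of the median and in A34 all 8 right of it, while in G37L and DTrsp they fall on both sides.

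G37H and G37L carry the same tRNA change at 16 and at 2 copies. They are separate lines with 1 average each, so copy number cannot be told apart from other differences between them, such as insertion site or collection. Dbp and the Nr1d and Per genes were lower in G37H than in G37L, Tef was about equal, and Rgs16 and Wee1 were higher. The difference was -1.40 for Dbp, -0.86 for Nr1d2, -0.76 for Nr1d1, -0.64 for Per2, -0.38 for Per1, -0.03 for Tef, 0.68 for Rgs16 and 0.90 for Wee1. Of the 8, 6 were lower in G37H than in G37L, as were 50.9% of all genes. Dbp alone was at least 2-fold lower, against 2.67% of all genes, and 0 were at least 2-fold higher, against 4.07%. For Nr1d1 the median of probes gave a second gene past 2-fold. Of the 12 other core clock genes measured, 3 were lower in G37H than in G37L and 9 higher, with a median difference of 0.18 against -0.01 for all genes. Tef differed by less than the spread between its own probes.

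**Figure D3:**
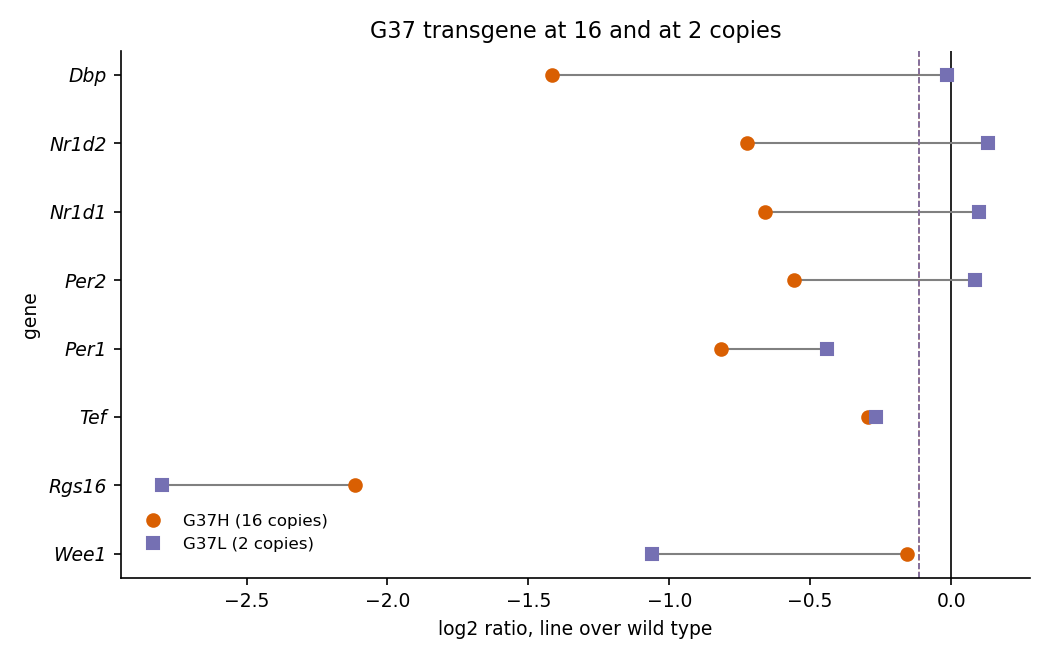
Circles give the log2 ratio over wild type in G37H (16 copies) and squares in G37L (2 copies), joined for each gene; dashed lines mark the column medians, which nearly coincide. Dbp, Nr1d2, Nr1d1, Per2 and Per1 lie lower in G37H, Tef is about equal, and Rgs16 and Wee1 lie lower in G37L.

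A34 and G37L carry 2 copies each of transgenes with different tRNA changes, again as separate lines. A34 minus G37L was 3.10 for Rgs16, 1.46 for Wee1 and 1.08 for Per1, so 3 of 8 were at least 2-fold higher in A34, against 7.07% of all genes, and 0 lower, against 2.55%. Centred on the median of all genes, Per1 was at 0.89 and 2 of 8 stayed past 2-fold. The Rgs16 difference includes the G37L value on which the gene was chosen. Dbp was 0.57 and Tef 0.56 higher in A34, Nr1d1 was 0.41 higher, and the difference was 0.02 for Per2 and -0.04 for Nr1d2.

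Against DTrsp, the transgenic lines differed from each other in which of these genes stood apart. G37H minus DTrsp was -1.93 for Dbp and -2.11 for Rgs16, the 2 genes at least 2-fold lower (8.93% of all genes), with 0 at least 2-fold higher (4.26%). Nr1d1 was at -0.91, and at -1.24 with the median of its probes. A34 minus DTrsp was 1.66 for Per1, the 1 gene at least 2-fold higher (4.48% of all genes), with 0 lower (4.09%). G37L minus DTrsp was -2.79 for Rgs16 and -1.61 for Wee1, the 2 at least 2-fold lower (10.1%), with 0 higher (3.96%). The Rgs16 differences include the values on which it was chosen. Dbp and the REV-ERB and Per genes were lower in G37H than in A34, G37L and DTrsp alike, except Per1, which was lowest in DTrsp. Tef was lowest in G37H by 0.03. In all 5 of 8 genes had their lowest value in G37H, as had 34.5% of all genes. The differences share columns and are not independent of each other, and the labels do not say whether the lines share wild-type animals.

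The other core clock genes had a median at the level of all genes in G37H. Of 17 listed, 12 were measured, and the others were not analysed here. Their median in G37H was -0.10, close to the -0.11 of all genes. Below 0 were 10 of 12, against 61.6% of all genes, while 5 of 12 were below the median of all genes. At least 2-fold lower was 1 of 12 and 0 were higher, against 3.10% and 2.78% of all genes. That gene was Bhlhe40, an E-box repressor also known as DEC1, at -1.24 in G37H, 0.24 in A34, -0.56 in G37L and -0.32 in DTrsp. Timeless was at -0.73 in G37H. Hlf, the third PAR bZIP factor, was at -0.04 in G37H, 0.16 in A34, -0.63 in G37L and 0.05 in DTrsp. Nfil3, a repressor at the same D-box, stayed between -0.04 and 0.23 in the 4 lines.

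In G37L the same list lay lower than in G37H. Its median was -0.49 against -0.11 for all genes, with 11 of 12 below 0, against 60.6%, and none past 2-fold in either direction, against 3.96% lower and 2.51% higher. Btrc, the ubiquitin ligase subunit that targets PER proteins, was at -0.87, Per3 and Cry2 at -0.67 each, Timeless at -0.60, Bhlhe41 at -0.41, Clock at -0.27 and Rora at -0.17. Csnk1e, a kinase of PER proteins, was the 1 gene above 0, at 0.08, with its relative Csnk1d at -0.03. Cry2, the partner of the PER proteins, had the widest range of the list, with -0.22 in G37H, 0.79 in A34, -0.67 in G37L and -0.88 in DTrsp. Like Per1, it was highest in A34 and lowest in DTrsp. In A34 the median was 0.22, with 9 of 12 above 0 against 59.1% of all genes, and in DTrsp it was -0.14, with 8 of 12 below 0 against 36.0%.

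Rhythmic output genes of liver metabolism were not lower as a group in G37H. Whether these genes follow Dbp was not tested. Of 18 listed, 16 were measured, Por and Elovl3 being without a probe of their own. In G37H their median was 0.10, 0 were at least 2-fold lower, against 3.10% of all genes, and 2 higher, against 2.78%. These were Cyp2b10, a cytochrome P450 induced by drugs through the receptor Nr1i3, at 2.84, and the cell cycle inhibitor Cdkn1a at 2.17. Nr1i3 itself was at 0.27. Alas1, the first enzyme of haem synthesis and a known PAR bZIP output, was at -0.55, the liver glycogen synthase Gys2 at -0.92 and the transferrin receptor Tfrc at -0.80.

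The output genes lay lower in G37L than in G37H. Their median was -0.55 against -0.11 for all genes, with 12 of 16 below 0, against 60.6%. At least 2-fold lower were 3, against 3.96% of all genes, and 1 was higher, against 2.51%. The lower ones were Cyp2a5 at -2.0, the uridine phosphorylase Upp2 at -1.60 and Alas1 at -1.52, and the higher one was Cyp2b10 at 1.37. Gys2 was at -0.84, Cyp2a4 at -0.81, Nr1i3 at -0.79 and Cdkn1a at -0.66. The phosphatidate phosphatase Lpin1 was at -0.67, a mean of probes that read -0.58, -1.64 and 0.23. Cyp2a4 and Cyp2a5 are so alike that a probe may read both. Nampt, an enzyme of NAD salvage, was at 0.54 in G37H and -0.44 in G37L. In G37H minus G37L, 4 of the 16 outputs were lower, against 50.9% of all genes, and 12 higher, of which 6 were at least 2-fold higher, against 4.07%.

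In A34 and DTrsp the output genes had medians of 0.14 and 0.30, near those of all genes (0.07 and 0.16). Cyp2a5 was the highest of them in both, at 1.22 in A34 and 2.65 in DTrsp, and Cyp2a4 was at 0.85 and 1.70. Lpin1 at -0.75 and the rhythmic nocturnin gene Noct at -0.69 were low in A34, where Cyp2b10 was at -0.97. The Lpin1 probes did not agree there, reading -0.91, -1.74 and 0.39. Cyp7a1, the first enzyme of bile acid synthesis, stayed between -0.30 and 0.42 in the 4 lines, and the deubiquitinase Usp2 between -0.27 and 0.39. The vasopressin receptor Avpr1a was above 0 in all 4, from 0.20 to 0.84, and the receptor Ppara was at 0.28 in G37H, 0.68 in A34, -0.24 in G37L and 0.04 in DTrsp.

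**Figure D4:**
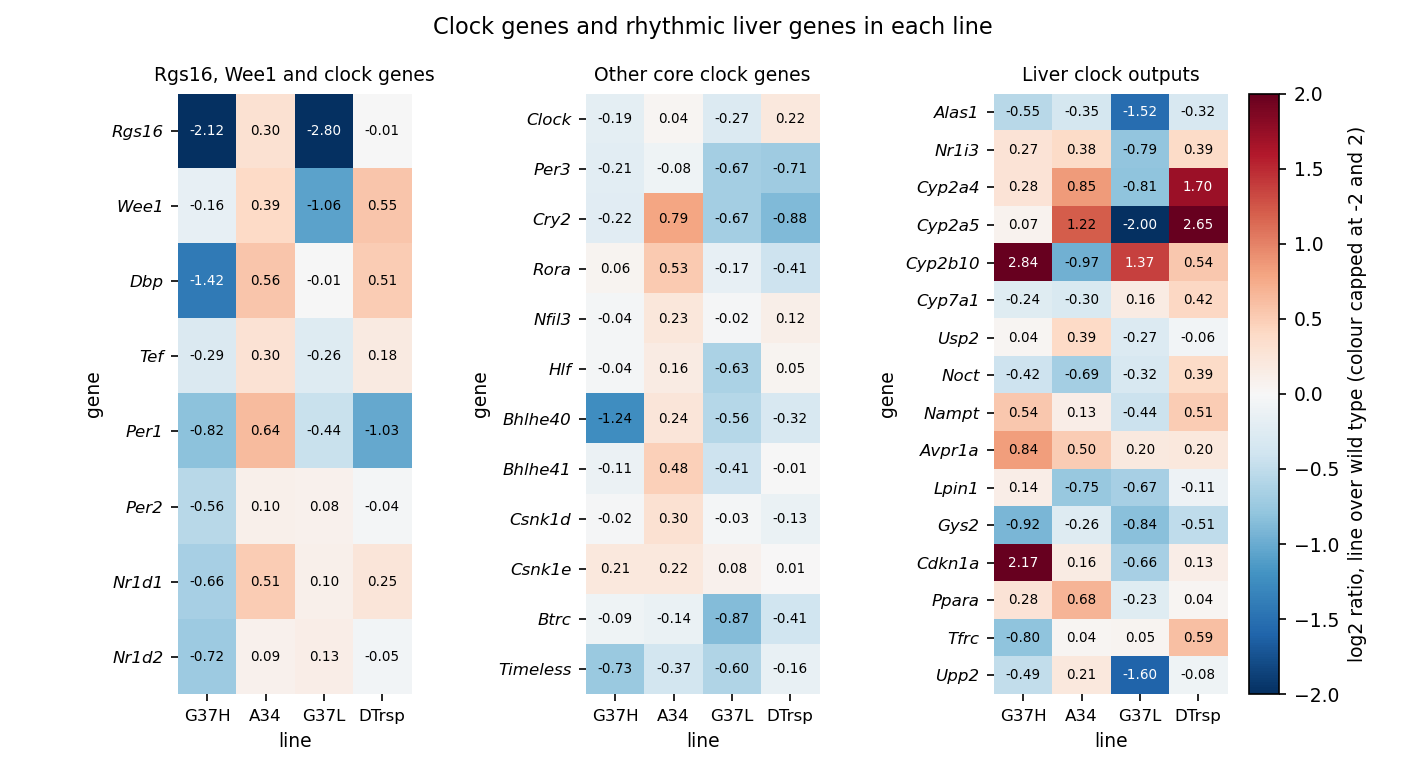
Each cell gives the log2 ratio of a gene in a line over wild type, for the 8 genes, the 12 other core clock genes and the 16 liver output genes; colour is capped at -2 and 2. The G37H column is blue for Dbp, the Per and the Nr1d genes and pale for most other clock genes, and the G37L column is the bluest among the outputs.

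Of 27 listed Rgs and G alpha genes, the relatives and partners of Rgs16, 8 were measured, among them 3 Rgs genes. None was at least 2-fold lower in G37H or G37L, against 3.10% and 3.96% of all genes. In A34 all 8 of this list were above 0, as were 59.1% of all genes, with a median of 0.30. Rgs5 was at -0.72 in G37H, 0.05 in A34, -0.99 in G37L and -1.0 in DTrsp, just short of 2-fold in both. Gnaq, a Gq class subunit, was at -0.98 in G37H and -0.57 in G37L. Gnai1, of the Gi class, was at 0.63 in G37H and -0.47 in G37L.

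Genes of the carbohydrate response, to which Rgs16 is attributed in mouse liver, had medians below those of all genes in the 3 transgenic lines. For the 13 measured the median was -0.56 in G37H, -0.33 in A34, -0.36 in G37L and 0.29 in DTrsp. At least 2-fold lower were 2 in G37H (Acly at -1.53 and G6pc at -1.15), 3 in A34 (Elovl6 at -1.51, Fasn at -1.15 and G6pc at -1.02) and 2 in G37L (Thrsp at -1.16 and Pklr at -1.02), and 0 in DTrsp, where Gpd1 at 1.55 was the 1 higher gene. Over all genes the shares lower were 3.10% in G37H, 0.452% in A34, 3.96% in G37L and 1.62% in DTrsp, and 3.27% were higher in DTrsp; they also apply to the next list, which shares G6pc. Of 8 measured genes known to be higher in fasted liver, 2 were at least 2-fold lower in G37H (Cyp4a14 at -1.32 and G6pc at -1.15), 3 in A34 (Cyp4a14 at -3.10, Igfbp1 at -1.38 and G6pc at -1.02) and 1 in G37L (Cyp4a14 at -1.63). In DTrsp 2 were at least 2-fold higher, Cyp4a14 at 2.10 and Igfbp1 at 1.12. The median of the fasting list was -0.24 in G37H, -0.46 in A34, -0.16 in G37L and 0.72 in DTrsp. Over all genes the medians were -0.11 in G37H, 0.07 in A34, -0.11 in G37L and 0.16 in DTrsp.

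Beside Wee1, 4 of 11 listed mitotic partners were measured. The cyclin Ccna2 was at 1.49 in G37H, 0.48 in A34, 1.43 in G37L and 0.35 in DTrsp, and Cdk1, the substrate of Wee1, at 0.33 in G37H, -0.02 in A34, 0.39 in G37L and -0.23 in DTrsp. Of the Cdc25 phosphatases, which reverse the phosphorylation by Wee1, Cdc25a was at -0.47 in G37H, -0.30 in A34, -0.62 in G37L and -0.24 in DTrsp. Cdc25c was at -0.30 in G37H, -0.20 in A34, 0.25 in G37L and 0.12 in DTrsp. Ccna2 was the 1 partner past 2-fold, higher in G37H and G37L, against 2.78% and 2.51% of all genes.

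The genes with values most like those of Rgs16, Wee1 and Dbp over the 4 lines were ranked by Euclidean distance between log2 ratios, which is a description with n = 4. Distances from Rgs16 include the G37H and G37L values on which it was chosen, so its neighbours are genes that are also low there. The gene closest to Rgs16 was the steroid dehydrogenase Hsd3b3, at a distance of 1.07, with -1.44 in G37H, 0.01 in A34, -2.06 in G37L and 0.27 in DTrsp. It was followed by Dchs1 (1.20), the lipogenic regulator Srebf1 (1.37), the chemokine Xcl1 (1.37) and the transsulfuration enzyme Cth (1.44). Of these, Cth alone was below -2 in both G37 lines, at -2.35 in G37H and -2.47 in G37L, but it was also at -1.07 in A34. For Wee1 the nearest were Tcp11l2 at 0.16, Bdh2 at 0.22, Tusc1 at 0.29, Kansl3 at 0.30 and Tsc1 at 0.30. For Dbp they were Olfr552 at 0.30, Drd3 at 0.51, Rnf214 at 0.54, Plbd2 at 0.58 and Capn15 at 0.59, none of them on the clock lists. Within the 8 genes the nearest pair was Per2 and Nr1d2, 0.17 apart, each among the 10 genes nearest to the other of 9285. This closeness is one of means over probes. In A34, G37L and DTrsp the probes of each gene lay on opposite sides of 0. Their SD in DTrsp was 0.44 for Per2 and 0.88 for Nr1d2.

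**Figure D5:**
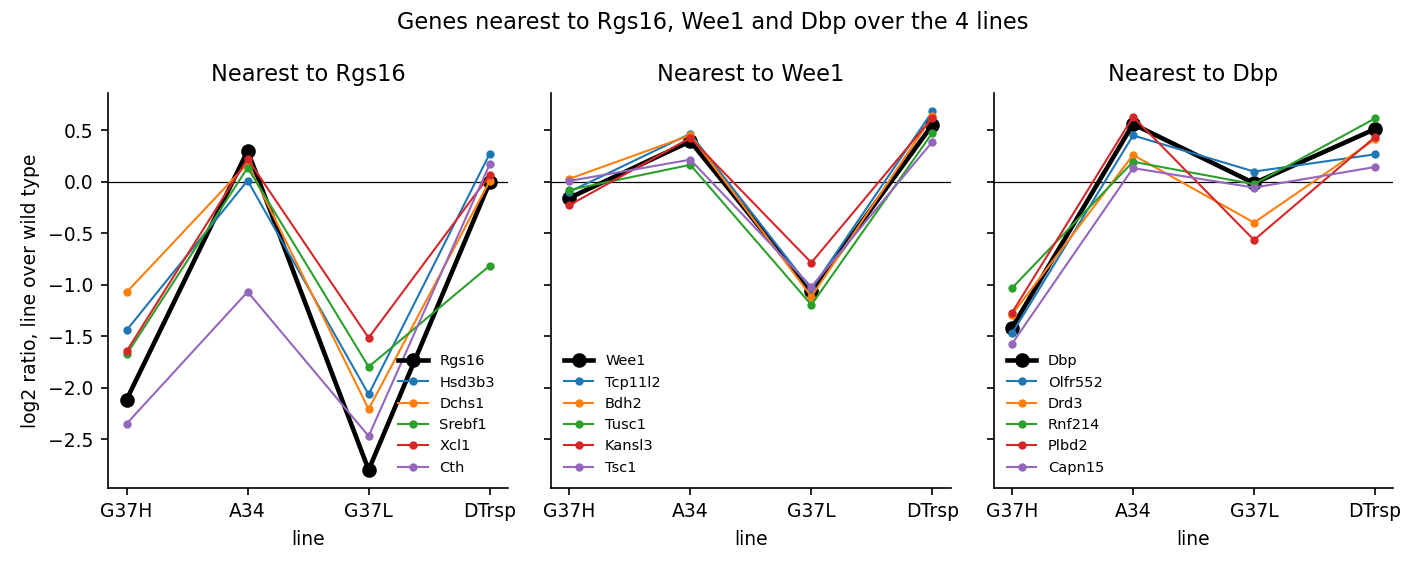
Log2 ratios over wild type in the 4 lines for Rgs16, Wee1 and Dbp (thick black) and the 5 genes nearest to each (colours). The neighbours of Wee1 lie within 0.30 of it in distance, and those of Rgs16, chosen as an extreme gene, are 1.07 or more away.

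Facts of the whole series that touch these values are few. Column medians over genes were -0.11 in G37H, 0.07 in A34, -0.11 in G37L and 0.16 in DTrsp. Signal intensities were not used here, so liver markers appear as ratios only. Of 13 hepatocyte markers, 11 were above 0 in G37H (range -0.35 to 0.86), 11 in A34 (-0.13 to 0.86), 12 in G37L (-0.14 to 1.61) and 11 in DTrsp (-0.67 to 0.79); over all genes 38.4% were above 0 in G37H, 59.1% in A34, 39.4% in G37L and 64.0% in DTrsp. Of 13 Kupffer cell and macrophage markers, 11 were above 0 in G37H (-0.35 to 1.56), 12 in A34 (-0.06 to 1.12), 13 in G37L (0.17 to 1.60) and 7 in DTrsp (-0.59 to 1.02). Their part in the values of the 8 genes was not tested, and in whole liver fewer cells of a type and less RNA per cell cannot be told apart.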

How the data were processed

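The deposited table holds log ratios, read here as log2 since the labels state no base, 1 column per line, which the authors averaged over biological replicates, per the labels; the labels state no background correction, normalization, scanner or dye swap. All 15478 probes had a value in each of the 4 columns. Probes were named through the platform annotation, with symbols updated by gene identifier from the mouse gene table of GRCm38.p6 (12984 probes), while 63 kept the annotation's symbol and 110 with several genes and 2321 not listed stayed unnamed. Probes of a gene were averaged, giving 9285 genes, with pandas 2.3.3 in Python 3.11.15. No test was possible, and the number of arrays limits the precision. Decimals were read as fractions of a 4-decimal step (tolerance 0.01 step) to find the smallest number of arrays that gives a value. Named beside the 8 genes are the measured genes of the core clock and liver output lists, up to 4 genes of any other list, and the 5 genes nearest to Rgs16, Wee1 and Dbp. Members and lists were chosen with earlier results of these data known. Alternatives were centring on all genes or on reference housekeeping genes, the median of probes, single probes, scaling each column to the spread of DTrsp, natural logs, 1.5-fold and 3-fold thresholds, the mean over the 8 genes, leaving out Rgs16, and other rankings of likeness. The counting and ranking steps were tested on simulated data.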

Additional observations from a re-analysis of the deposited data

How the results depend on the processing

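No called value, that is one past 2-fold, changed sign under any alternative, but smaller values did. Centred on reference housekeeping genes, Dbp in DTrsp went from 0.51 to -0.03, Nr1d1 from 0.25 to -0.29 and Tef from 0.18 to -0.37. Wee1 in DTrsp went from 0.55 to 0.01. In G37L Per2 went from 0.08 to -0.04 and Nr1d1 from 0.10 to -0.03. Nr1d2 in A34 went from 0.09 to -0.0009. Counts of the 8 genes past 2-fold moved as follows. Centred on the median of all genes, 1 was lower in G37L, and 2 were higher in A34 minus G37L, Per1 being lost at 0.89. Centred on reference housekeeping genes, the DTrsp median was -0.46, and 1 gene was higher in G37H minus G37L and 1 in G37L minus DTrsp. With the median of probes, 2 were lower in G37H minus G37L. With each of the 14 probes singly, 1 was higher in A34, 4 were lower in G37H minus G37L, 2 higher in A34 minus DTrsp, 1 higher in G37L minus DTrsp and 5 lower in G37H minus DTrsp. Read as natural logs, 4 were lower in G37H with a median of -0.996, 3 were lower and 1 higher in G37H minus G37L, and 4 were lower in G37H minus DTrsp. At 1.5-fold, 5 were lower in G37H and 1 higher in A34, 4 lower and 2 higher in G37H minus G37L, 1 higher in G37L minus DTrsp and 5 lower in G37H minus DTrsp. At 3-fold, 1 was lower in G37H, 1 in G37L and 0 in DTrsp, 0 lower in G37H minus G37L and 1 higher in A34 minus G37L. The mean of the 8 genes in G37L was -0.53, against a median of -0.14. The other counts and medians stayed within 1.5 times or within the spread between probes. Ranking likeness by the largest difference kept 3 of the 5 genes nearest to each of Rgs16, Wee1 and Dbp, and ranking genes with 1 probe only kept 4, 5 and 5. No paired analysis was possible because each line has a single averaged column. With 1 averaged value per line, no difference can be set against the variation between animals.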
